A study of Mus musculus with 20 samples.

Results

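The clustered protocadherin genes are 58 neighbouring genes on mouse chromosome 18. They encode cell adhesion proteins of the cadherin superfamily, apart from Pcdhgb8, which RefSeq lists as a transcribed pseudogene. Members were taken by their symbols from the RefSeq annotation of GRCm38, the assembly also called mm10, where they form the alpha subcluster of 14 genes, the beta subcluster of 22 genes and the gamma subcluster of 22 genes. All 58 were found, and they span chr18:36930285-37841873. All peaks in this span with 20 kb on each side were counted, a window of 952 kb. The authors' table of 32120 ATAC consensus regions holds 7 regions annotated to a member by symbol and 15 regions inside the window.

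Each alpha and gamma gene has its own promoter and a large first exon, which is spliced to constant exons shared by the subcluster, while each beta gene is a single coding exon with its own promoter. Neurons are known to choose among the alternate promoters largely at random from cell to cell, and the resulting protein combinations serve self-recognition of neurites. Most promoters carry a conserved element bound by CTCF, the factor that with cohesin brings a promoter to distant enhancers. The C-type members Pcdhac1, Pcdhac2, Pcdhgc3, Pcdhgc4 and Pcdhgc5 lie at the ends of the alpha and gamma arrays and are known to be used more regularly. Pcdhac2, Pcdhb1, Pcdhgc4 and Pcdhgc5 are known to lack the conserved element.

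Cells of the Nkx2.1 lineage, marked by GFP, were sorted from the neocortex of pups at postnatal day 7 or 8. WT pups carried Nkx2.1-Cre and the Ai3 reporter, and Tcf4 cKO pups carried in addition 2 floxed alleles of Tcf4, a basic helix-loop-helix transcription factor, so that Cre was active in cells of both genotypes. ATAC-seq, which marks accessible chromatin, and Cut&Tag for 3 histone marks (H3K27ac, H3K4me1 and H3K27me3) were each done in 2 libraries of each genotype. Anti-Flag Cut&Tag with 2 libraries came from the Tcf4-tag line, in which endogenous Tcf4 carries a C-terminal Flag/HA tag once Nkx2.1-Cre is active. H3K4me1 marks enhancers and promoter flanks, H3K27ac active promoters and enhancers, and H3K27me3 chromatin repressed by polycomb. Sorted cells were mixed, so a promoter open in fewer cells and one less open in each cell cannot be told apart. Whether libraries of a genotype came from separate litters is not given in the sources used here, and p-values then measure only the spread between these libraries.

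The libraries held 15085 to 72790 peaks, and read depth is unknown. Among the 4 ATAC libraries WT replicate 2 had the most peaks, 72308, against 54162 in WT replicate 1 and 61652 and 58584 in the Tcf4 cKO libraries. The lists hold no reads over the floxed exons, so the deletion itself was not checked here. An ATAC peak at any annotated start was present in both WT libraries for 5 of 6 oligodendrocyte precursor markers, 5 of 6 interneuron markers, 3 of 6 astrocyte markers, 3 of 5 projection neuron markers, 2 of 4 microglia markers and 2 of 4 endothelial markers. In both Tcf4 cKO libraries the counts were 5, 3, 4, 3, 1 and 2 in the same order. The part of cell composition in the values below was not tested.

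Accessibility was unequal along the cluster. A promoter was called open in a library when an ATAC peak touched the 1000 bp on either side of the start site, and closed when no peak was called there, which at unknown depth does not exclude weaker accessibility. Of the 58 members, 28 were closed in all 4 libraries, 7 were open in 1, 5 in 2, 8 in 3 and 10 in 4. Of 21774 protein-coding promoters, 7744 were closed in all 4 libraries and 12914 were open in all 4. In the beta subcluster 21 of 22 members were closed in every library, in the alpha subcluster 6 of 14 and in the gamma subcluster 1 of 22. The 10 members open in every library were Pcdha11, Pcdha12, Pcdhac1 and Pcdhac2 of the alpha array and Pcdhga7, Pcdhgb6, Pcdhgb8, Pcdhga12, Pcdhgc3 and Pcdhgc4 of the gamma array.

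**Figure D1:**
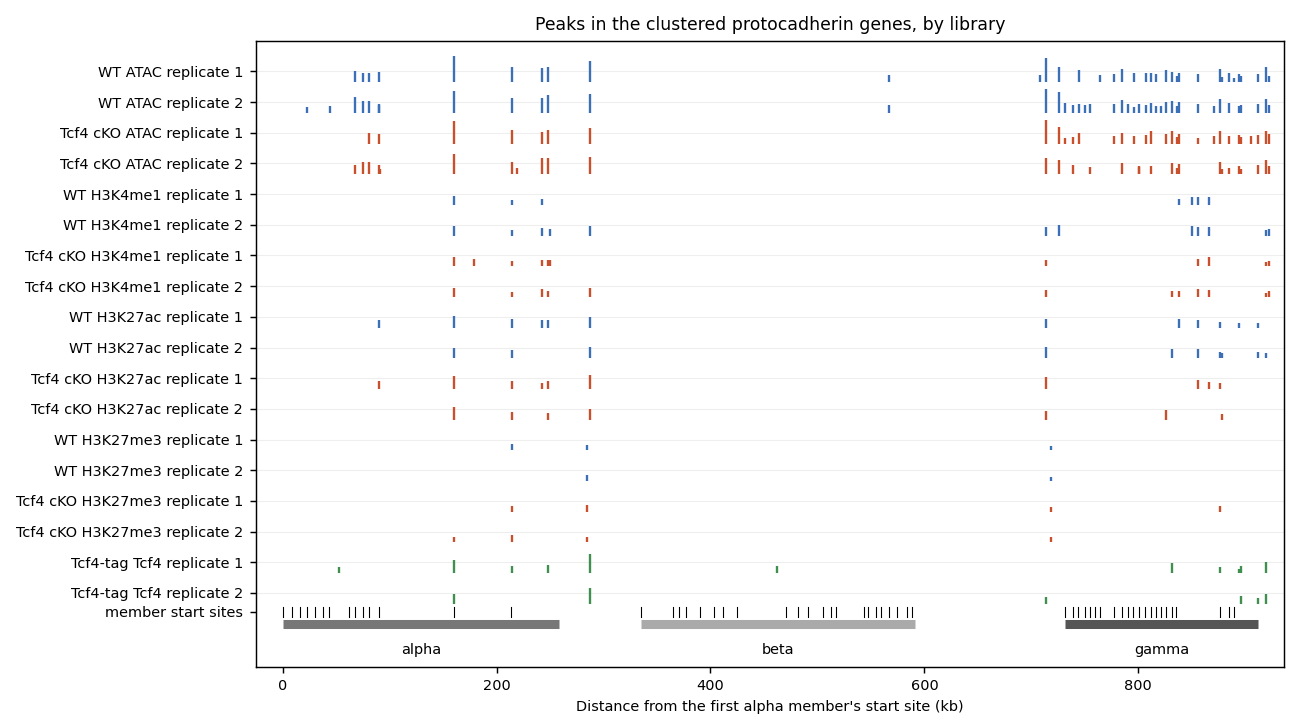
Peaks of each library (rows, coloured by genotype) against the distance from the start site of the first alpha member in kb. Each bar is a stretch with a peak and its height is the fold enrichment over local background, drawn to 1 scale for all rows. Black ticks are the 58 start sites. The beta interval holds almost no peak, while bars gather at the 3′ side of alpha, between the subclusters and over gamma.

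In the alpha array, open promoters were those nearest to the constant exons. Pcdha1, the first member (chr18:36930285-37187657), and Pcdha2, Pcdha3, Pcdha5, Pcdha6 and Pcdha8 had no ATAC peak in any library. Pcdha4 and Pcdha7 had a peak in WT replicate 2 alone, at 3.39-fold and 3.87-fold over local background. Pcdha9 and Pcdha10 were open in both WT libraries and in Tcf4 cKO replicate 2. At Pcdha10 the fold enrichment was 4.86 and 6.29 in WT and 6.34 in that Tcf4 cKO library.

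Pcdhac1, the alpha C-type member that starts at position 37090136, had the highest ATAC peak of all member promoters in each of the 4 libraries. Its fold enrichment was 13.9 and 11.8 in WT and 11.9 and 10.6 in Tcf4 cKO, so that 1 WT library lay just below the higher Tcf4 cKO library and the genotypes overlapped. Pcdhac2, the last alpha member, had 8.06 and 7.81 in WT and 7.44 and 6.63 in Tcf4 cKO. Here both WT values were above both Tcf4 cKO values. The median over open protein-coding promoters was also higher in both WT libraries, 8.66 and 8.70 against 8.38 and 8.27.

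The beta array was closed in both genotypes. Pcdhb1, the first beta member (chr18:37264998-37267454), and Pcdhb22, the last (chr18:37518353-37521419), had no peak of any assay in any library. The only open beta promoter was Pcdhb19 (chr18:37496998-37501711), with 3.89-fold and 4.35-fold ATAC peaks in the WT libraries and none in the Tcf4 cKO libraries. ATAC peaks covered 0.110% and 0.169% of the 256 kb from Pcdhb1 to Pcdhb22 in WT and 0% in both Tcf4 cKO libraries. H3K4me1, H3K27ac and H3K27me3 peaks covered 0% of this interval in all 12 libraries. Across the genome the same ATAC lists covered 1.33% to 1.78%.

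In the gamma array open promoters were spread along the whole array, 14 and 19 of 22 in the WT libraries and 13 and 9 of 22 in the Tcf4 cKO libraries. ATAC peaks covered 5.90% and 7.90% of the gamma interval in WT and 5.84% and 3.85% in Tcf4 cKO, so that 1 library of each genotype was nearly equal. Pcdhga1, the first gamma member, had a peak in WT replicate 2 at 5.32-fold and in Tcf4 cKO replicate 1 at 3.15-fold. Pcdhgb2 was the only gamma member with no ATAC peak in any library.

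The gamma C-type members differed among themselves. Pcdhgc3 was open at 7.29-fold and 7.45-fold in WT and 6.75-fold and 6.67-fold in Tcf4 cKO. Pcdhgc4 had 4.80-fold and 5.27-fold peaks in WT and 4.02-fold and 3.48-fold peaks in Tcf4 cKO. At both genes the WT libraries were above the Tcf4 cKO libraries, which was also the direction of the median over open protein-coding promoters. Pcdhgc5, the last gamma member, had a 2.14-fold peak in WT replicate 1 alone. Of the 4 members that lack the conserved element, Pcdhac2 and Pcdhgc4 were thus open in every library, Pcdhgc5 in 1 and Pcdhb1 in none.

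**Figure D2:**
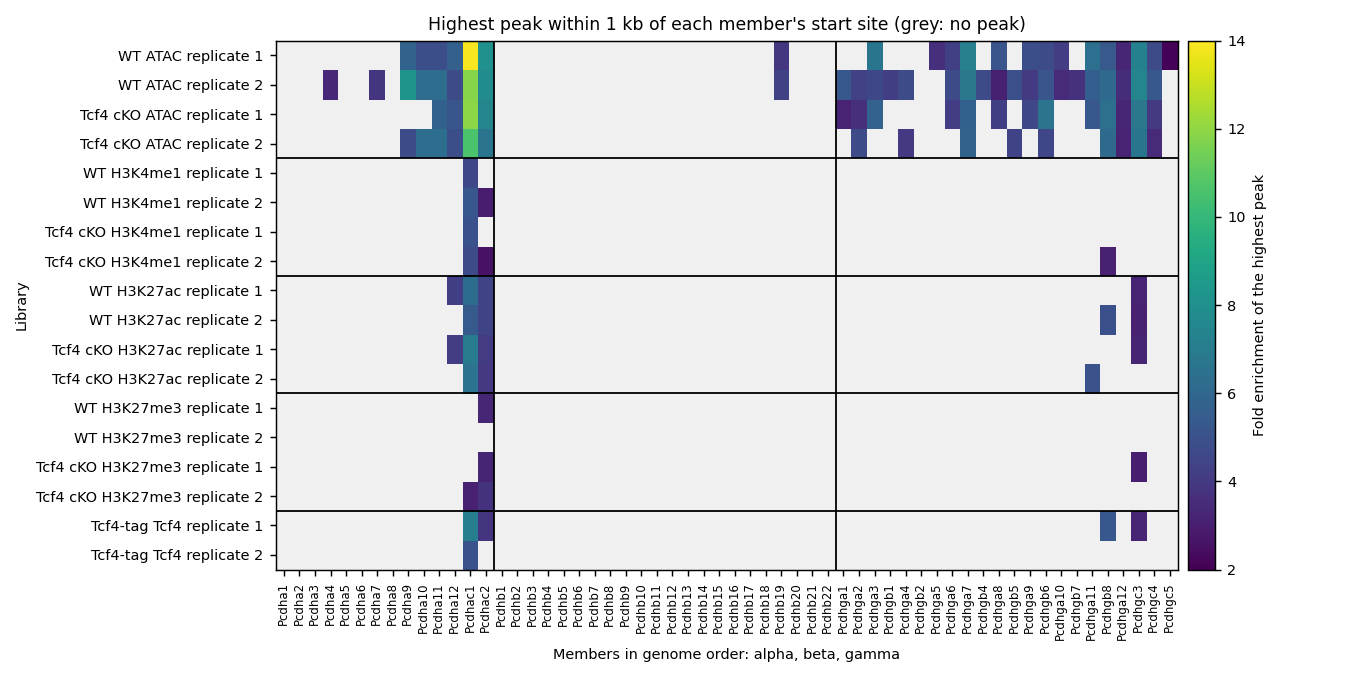
Fold enrichment of the highest peak within 1 kb of each start site (colour) for the 58 members in genome order (columns) and the 18 libraries (rows). Grey cells have no peak. ATAC signal is absent from all beta columns but Pcdhb19. Histone marks and Tcf4 appear only at Pcdhac1, Pcdhac2, Pcdhgc3 and Pcdhgb8, and H3K27ac also at Pcdha12 and Pcdhga11.

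Against other genes, the 58 member promoters as a set were less often open, and those that were open carried lower peaks. Per library, 21 and 28 of 58 member promoters were open in WT and 17 and 15 in Tcf4 cKO, that is 36.2% and 48.3% against 29.3% and 25.9%. Of 21774 protein-coding promoters, 61.5% and 63.1% were open in the WT libraries and 61.7% and 60.9% in the Tcf4 cKO libraries. The subclusters differed in this. Of 22 beta members 1 was open in each WT library and 0 in each Tcf4 cKO library. Of 22 gamma members 14 and 19 were open in WT, a share not below that of protein-coding promoters. In Tcf4 cKO the gamma counts were 13 and 9, a lower share. With a peak required in both libraries, the gamma share was 54.5% in WT and 31.8% in Tcf4 cKO, against 60.9% and 60.1%. The median fold enrichment of open member promoters was 4.87 and 4.78 in WT and 5.28 and 4.90 in Tcf4 cKO. For open protein-coding promoters it was 8.66 and 8.70 in WT and 8.38 and 8.27 in Tcf4 cKO. How many promoters or regions had both WT libraries higher was not counted. The shares of open promoters are descriptions, since neighbouring genes are not replicates.

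The genotypes were then compared. Both WT libraries had more open member promoters than both Tcf4 cKO libraries. Of the 4 ATAC libraries, WT replicate 1 had the fewest peaks and WT replicate 2 the most, and the part of depth was not tested. With a peak required in both libraries, 19 of 58 members were open in WT and 11 of 58 in Tcf4 cKO, where 60.9% and 60.1% of protein-coding promoters were. The alpha counts were 6 and 4 of 14, the beta counts 1 and 0 of 22, the gamma counts 12 and 7 of 22, and the C-type counts 4 and 4 of 5.

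Only 2 members, 3.45%, were open in both WT libraries while closed in both Tcf4 cKO libraries, namely Pcdhb19 and Pcdhga10. The share over all protein-coding promoters was 0.579%. Pcdhga10, a gamma member with alternate promoter, had 4.17-fold and 3.43-fold peaks in WT. All 4 of these peaks were below the median of open member promoters in their library, and neither gene had a peak in both WT libraries when a -log10 q of at least 5 was required. No member was open in both Tcf4 cKO libraries and neither WT library, where the share over all protein-coding promoters was 0.202%.

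The length under ATAC peaks in the window was 22.1 and 28.1 kb in the WT libraries and 21.3 and 17.9 kb in the Tcf4 cKO libraries. The means were 25.1 ± 4.25 kb (SD, n = 2) and 19.6 ± 2.37 kb (SD, n = 2), a difference of -5.51 kb (exact two-sided permutation test, p = 0.333, adjusted p = 0.444 over 4 assays). The genotypes did not overlap, but 0.333 is the smallest p that 2 against 2 libraries can give, and WT replicate 1 exceeded the higher Tcf4 cKO library by less than the spread within either genotype. Scaled to all sequence under peaks in each library, the window took 612 and 580 bases per Mb in WT and 527 and 475 in Tcf4 cKO.

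**Figure D3:**
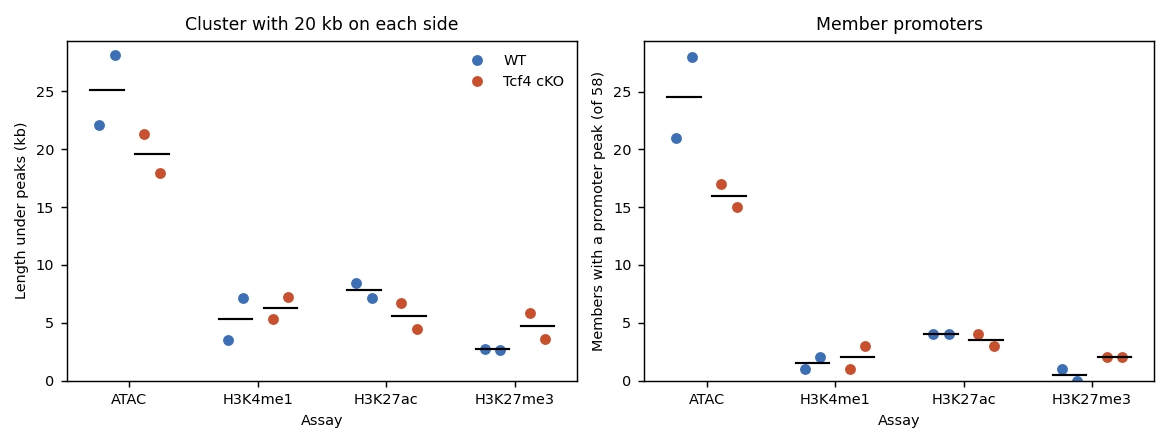
Left, length under peaks in the cluster with 20 kb on each side, in kb. Right, number of the 58 members with a peak within 1 kb of the start site. Points are libraries, lines are means of 2, blue is WT and orange Tcf4 cKO. For ATAC both WT points lie above both Tcf4 cKO points in both panels, 21 and 28 against 17 and 15 members, while the histone marks stay at 4 members or fewer.

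Enhancer and promoter marks at member promoters were few. H3K4me1 was present in both libraries of each genotype at 1 member, Pcdhac1, at 4.56-fold and 5.26-fold in WT and 5.03-fold and 4.79-fold in Tcf4 cKO. At Pcdhac2 it lay toward the downstream edge, within 1000 bp of the start in replicate 2 of each genotype and over the ATAC region there in all 4 libraries, at 2.60-fold to 2.91-fold. Over protein-coding promoters 25.1% had the mark in both WT libraries and 40.0% in both Tcf4 cKO libraries. No member had H3K4me1 in both libraries of 1 genotype and neither of the other, where the share over all protein-coding promoters was 0.335% for WT and 4.79% for Tcf4 cKO.

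H3K27ac was found in both WT libraries at Pcdhac1, Pcdhac2 and Pcdhgc3, all C-type members, against 48.1% of protein-coding promoters. In Tcf4 cKO both libraries had it at Pcdhac1 and Pcdhac2, against 45.2%. At Pcdhac1 the fold enrichment was 6.23 and 5.41 in WT and 7.01 and 6.58 in Tcf4 cKO, with both Tcf4 cKO libraries higher. At Pcdhac2 it was 4.46 in each WT library and 4.09 and 3.99 in Tcf4 cKO, with both Tcf4 cKO libraries lower. Pcdhgc3 had 3.16-fold and 3.10-fold peaks in WT and a 3.22-fold peak in Tcf4 cKO replicate 1 alone. Outside the C-type members, Pcdha12 had 4.23-fold in WT replicate 1 and 4.20-fold in Tcf4 cKO replicate 1. Pcdhgb8 had 4.93-fold in WT replicate 2 alone and Pcdhga11 5.07-fold in Tcf4 cKO replicate 2 alone. No member had H3K27ac in both libraries of 1 genotype and neither of the other, where the share over all promoters was 1.28% for WT and 0.349% for Tcf4 cKO.

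H3K27me3 did not cover the closed members. The mark took 0.288% and 0.277% of the window in WT and 0.611% and 0.379% in Tcf4 cKO, against 0.775% to 0.913% of the genome in the same lists. At promoters it was found at Pcdhac2 in WT replicate 1 at 3.31-fold and in both Tcf4 cKO libraries at 3.25-fold and 3.75-fold, at Pcdhac1 in Tcf4 cKO replicate 2 at 3.09-fold and at Pcdhgc3 in Tcf4 cKO replicate 1 at 3.01-fold. These are members that were open in every ATAC library, and none of the 28 closed members carried the mark. Over all protein-coding promoters 18.7% and 21.9% carried it in the WT libraries and 19.8% and 19.1% in the Tcf4 cKO libraries. The share among closed protein-coding promoters was not counted. No member had it in both libraries of 1 genotype and neither of the other, where the share over all promoters was 1.71% for WT and 1.47% for Tcf4 cKO.

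Away from promoters, H3K27me3 occurred in all 4 libraries at a pair of stretches between subclusters. The stretch chr18:37214340-37215432, between alpha and beta, had 2.97-fold and 2.95-fold peaks in WT and 3.39-fold and 3.07-fold peaks in Tcf4 cKO. The stretch chr18:37646802-37649635, between beta and gamma, had 2.55-fold and 2.36-fold peaks in WT and 2.26-fold and 2.69-fold peaks in Tcf4 cKO. The genotypes overlapped at the second and not at the first.

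The length under peaks of the 3 marks in the window was compared in the same way, with the same smallest p. For H3K4me1 it was 5.34 ± 2.55 kb in WT and 6.28 ± 1.40 kb in Tcf4 cKO (SD, n = 2 each, exact two-sided permutation test, p = 0.667). For H3K27ac it was 7.80 ± 0.933 kb in WT and 5.57 ± 1.64 kb in Tcf4 cKO (SD, n = 2 each, exact permutation p = 0.333). For H3K27me3 it was 2.69 ± 0.0757 kb in WT and 4.71 ± 1.56 kb in Tcf4 cKO (SD, n = 2 each, exact permutation p = 0.333). Adjusted over the 4 assays the permutation p-values were 0.667, 0.444 and 0.444, and only the H3K4me1 libraries overlapped between genotypes.

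Tcf4 was mapped at few member promoters. Pcdhac1 alone had a Tcf4 peak in both Tcf4-tag libraries, at 7.13-fold and 5.03-fold, where 34.4% of protein-coding promoters did. Pcdhac2, Pcdhgb8 and Pcdhgc3 had peaks in replicate 1 alone, at 3.80-fold, 5.25-fold and 3.29-fold. Replicate 2 had fewer peaks in all, 16834 against 28606. No other member had a Tcf4 peak at the promoter in either library, and all 22 beta members were among these.

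The highest Tcf4 peak of the window lay outside the promoters, over the ATAC region chr18:37217102-37218509. This region is annotated as distal intergenic, 28.2 kb past the end of the alpha genes and 46.5 kb before Pcdhb1. Its Tcf4 peaks of 10.1-fold and 8.34-fold were at or above 99.1% and 95.5% of all Tcf4 peaks of their libraries. It was accessible at 11.2-fold and 10.1-fold in WT and 8.24-fold and 9.09-fold in Tcf4 cKO, with both WT libraries higher. The authors' mean log2 normalised reads there were 8.64 in WT and 8.44 in Tcf4 cKO. H3K27ac was present in all 4 libraries, at 5.91-fold and 5.85-fold in WT and 7.67-fold and 5.84-fold in Tcf4 cKO. H3K4me1 was present at 4.94-fold in WT replicate 2 and 4.93-fold in Tcf4 cKO replicate 2. The H3K27me3 stretch between alpha and beta ended 1670 bp before it. The interval between alpha and beta is known to hold an enhancer of the alpha genes, but no source used here gives its coordinates, so the region was not matched to it.

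Both Tcf4-tag libraries also had a peak at the gamma intron region chr18:37825891-37826862, at 3.84-fold and 3.95-fold, and at a region in an intron of Diaph1, the gene next to gamma that encodes an actin-nucleating formin. At that second region, chr18:37849197-37850235, the peaks were 5.70-fold and 5.21-fold.

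The authors' mean normalised reads per genotype gave the size of change for the consensus regions. These are 1 mean per genotype with no spread, so a difference of 0.5 on the log2 scale was used as a call of size and not as a test. Over all 32120 regions 12.6% were at least 0.5 lower in Tcf4 cKO and 8.38% at least 0.5 higher, with a median difference of -0.10. Of the 7 member regions 0 were lower and 1 was higher, and the median difference was -0.12. The symbols of the table are given per Ensembl gene, so that the 7 regions bear only the names Pcdha10 and Pcdhgc4, while by RefSeq starts 5 of them lie over the starts of Pcdhac1, Pcdhac2, Pcdhgb8, Pcdhgc3 and Pcdhgc4 and the other two over no member start.

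The regions over member starts had nearly equal means in both genotypes. At Pcdhac1 (chr18:37089526-37090728) the means were 7.78 in WT and 7.83 in Tcf4 cKO. At Pcdhac2 (chr18:37143311-37144972) they were 8.79 and 8.61. At Pcdhgc3 (chr18:37805922-37807387) they were 8.86 and 8.71, the highest WT mean of the 15 regions. At Pcdhgc4 (chr18:37814597-37815831) they were 7.76 and 7.64. At Pcdhgb8, which RefSeq lists as a transcribed pseudogene (chr18:37761272-37762088), they were 6.31 and 6.56. The differences at these 5 starts ran from -0.18 at Pcdhac2 to 0.25 at Pcdhgb8. Over all consensus regions the median absolute difference was 0.22. The other member starts, among them those of Pcdhb19 and Pcdhga10, had no consensus region and are not covered by these means.

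The only member region past 0.5 was in a gamma intron, chr18:37824004-37824708, with means of 7.42 in WT and 8.04 in Tcf4 cKO. It lies 4458 bp past the start of Pcdhgc5. The peak lists gave it 4.13-fold and 3.56-fold in WT and 4.66-fold and 4.51-fold in Tcf4 cKO, with both Tcf4 cKO libraries higher. These peaks come from the same ATAC libraries as the means that picked the region, so they are not separate support. The neighbouring gamma intron region, at which Tcf4 was found, had means of 7.67 and 7.53.

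Of the 8 other regions in the window 2 were at least 0.5 lower in Tcf4 cKO. This was 2 of all 15 regions in the window, beside 12.6% of all 32120 consensus regions. The region at the start of the lincRNA 3222401L13Rik (chr18:37655486-37656100), 5675 bp before Pcdhga1, had means of 6.19 in WT and 5.56 in Tcf4 cKO, a difference of -0.63. Its peaks were 8.03-fold and 11.0-fold in WT and 8.85-fold and 7.62-fold in Tcf4 cKO, so the genotypes overlapped in the peak lists. The Diaph1 intron region with Tcf4 had means of 8.57 and 7.89, a difference of -0.68. Its peaks were 8.15-fold and 7.47-fold in WT and 6.52-fold and 7.40-fold in Tcf4 cKO, with both WT libraries higher. Here too peaks and means come from the same ATAC libraries.

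**Figure D4:**
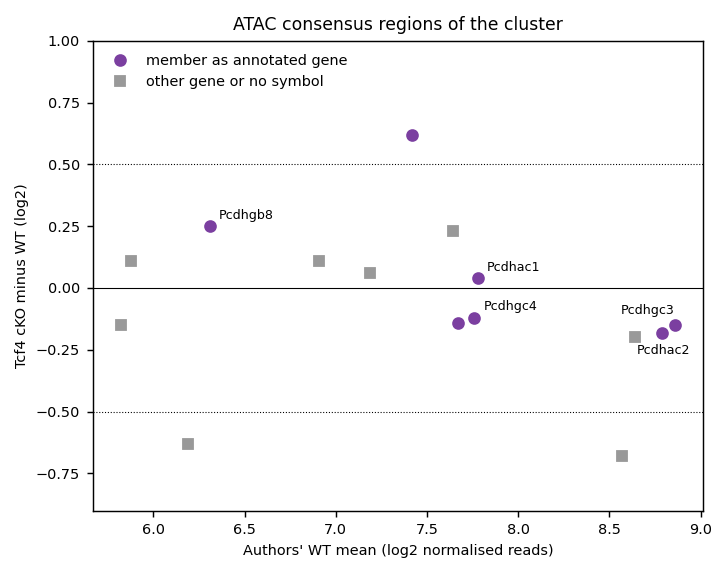
Difference of the authors' genotype means (Tcf4 cKO minus WT, log2) against the WT mean for the 15 consensus regions of the window. Purple circles have a member as annotated gene and grey squares do not, names mark regions over a member's start site, and dotted lines are at 0.5 on either side of 0. All 5 named regions lie between -0.18 and 0.25, and 3 unnamed regions lie past the lines.

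Between beta and gamma lies Taf7, which encodes a subunit of the general transcription factor TFIID. Its promoter was open at 12.9-fold and 12.8-fold in WT and 12.6-fold and 8.62-fold in Tcf4 cKO and carried H3K27ac in all 4 libraries, in contrast to the closed beta promoters before it. An intron-side stretch of gamma, chr18:37785882-37786924, lay 19486 bp before Pcdhgc3 and had H3K4me1 in all 4 libraries, at 4.21-fold and 4.84-fold in WT and 4.06-fold and 4.05-fold in Tcf4 cKO.

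Protocadherin genes outside the clusters were more often open than the members. Of 12 such genes, 11 had an ATAC peak at an annotated start in both libraries of each genotype, and Pcdh12 was the one closed at every start. Of 14 known regulators of the clusters, among them Ctcf, the cohesin subunits Rad21, Smc1a and Smc3, the cohesin loader Nipbl, Smchd1 and the DNA methyltransferases, all 14 had an ATAC peak at an annotated start in both libraries of each genotype. The same held for 66.3% of protein-coding genes in WT and 65.5% in Tcf4 cKO. With only the start farthest upstream, as used for the members, the counts were 10 of 12 and 9 of 14 in each genotype. Tcf4 peaks were present in both Tcf4-tag libraries at an annotated start of 13 of these 14 regulators and of 2 of the 12 other protocadherins, against 38.6% of protein-coding genes. With only the start farthest upstream the counts were 7 of 14 and 1 of 12, against 34.4%. Every clustered member has 1 annotated start, so the member counts do not depend on this choice.

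Sequence features of the member promoters were read from the GRCm38 reference. Over 300 bases, from 250 before to 50 after the start, the median GC content of members was 41.2%, against 53.7% for all protein-coding promoters, and 63.0% for the C-type members. The ratio of observed to expected CpG dinucleotides had a median of 0.578 in members and 0.474 in all protein-coding promoters. The alpha, beta and gamma medians were 0.689, 0.419 and 0.612. The 28 members closed in every library had a median of 0.486 and the 10 members open in every library 0.636. Of the 28, 21 were beta members, and of the 10 none was, so accessibility and subcluster were not separated. In gamma the closed member Pcdhgb2 had 0.670, while the 6 members open in every library ran from 0 at Pcdhga12 to 0.875 at Pcdhgc3. Protein-coding promoters closed in every library had a median of 0.164, so closed members held more CpG than closed promoters in general, while those open in every library had 0.723.

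**Figure D5:**
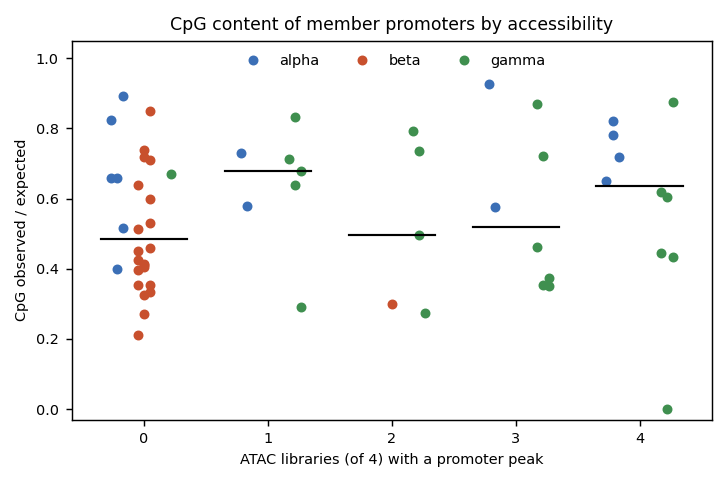
Observed over expected CpG in the 300 bases at each member's start site against the number of ATAC libraries, of 4, with a peak there. Points are the 58 members coloured by subcluster, spread sideways only to be visible, and lines are medians over all members at that number. The median is 0.486 at 0 libraries and 0.636 at 4, with wide overlap. Of the 28 members at 0 libraries 21 are beta, and no beta member is at 4.

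An exact match to the CTCF core motif, on either strand within 500 bp of the start, was found in 3 of 58 members, 5.17%, against 1.04% of protein-coding promoters. The 3 were the alpha members Pcdha1, Pcdha8 and Pcdha12, with the match at 459, 456 and 456 bp past the start. Of these Pcdha1 and Pcdha8 were closed in every library and Pcdha12 was open in every library. With 1 mismatch allowed, 6 members had a match, 10.3%, against 12.2% of protein-coding promoters. The search used a single fixed consensus string and misses sites that differ from it. These counts therefore do not measure how many members carry the conserved element bound by CTCF.

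Tcf4 recognises E-boxes, short motifs of the form CANNTG. The E-box CAGCTG occurred within 500 bp of the start in 25.9% of members and 40.6% of protein-coding promoters, and CAGGTG, searched on both strands, in 44.8% and 56.0%. In the middle 300 bases of the 15 regions, CAGCTG was present in 5, 33.3%, against 23.2% of all consensus regions, and CAGGTG in 2, 13.3%, against 16.4%. The 5 regions were those at Pcdhac1, between alpha and beta, in the gamma intron with Tcf4, and a pair in Diaph1. The 4 regions with a Tcf4 peak in both libraries were all among these 5, an overlap that was looked at after the values were seen, and none of the 4 held CAGGTG. A match describes the letters and does not show binding.

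The members are related in sequence. The share of 50-base words around each start that recur elsewhere in the window had a median of 8.12% in alpha, 0% in beta and 0.179% in gamma. It was highest, 18.3%, at Pcdha7. By accessibility the median was 3.10% in the members closed in every library, 0.564% in those open in 1 to 3 libraries and 0.282% in those open in 4. Within beta it ran up to 12.7%, at Pcdhb12. Copies elsewhere in the genome were not counted. By the paper's methods peaks were called from uniquely mapped reads, and the part of shared sequence in the peak calls was not tested. The 81 ATAC peaks at member promoters had their summits at a median of 96 bp past the start, from -193 to 648 bp, and 62 were within 250 bp.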

How the data were processed

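The authors trimmed reads with Trim Galore, aligned them to mm10 with Bowtie 2 and removed duplicates. From the reads that mapped uniquely they called peaks per library with MACS2. The deposited peak lists give each peak's fold enrichment over local background (a ratio), its -log10 p and its -log10 q, with q under 0.05 for narrow and under 0.1 for broad H3K27me3 peaks. The authors' consensus table holds mean log2 normalized reads per genotype, made with DiffBind and DESeq2 and annotated by ChIPseeker. Its columns of the authors' own comparison (fold change, p-value, FDR) and the footprint table were not used. None of the files gives read counts per library, so no count test was possible and depth is unknown. The 2 single-cell samples were not analysed here.

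Start sites came from RefSeq on GRCm38.p6, the build of the peak lists, and all 709410 peaks lay within its chromosomes. A promoter had a peak when at least 1 bp of it lay within 1000 bp of the start. The start farthest upstream was used, which misses the main start of some genes outside the cluster. With any annotated start, 66.3% of protein-coding promoters were open in both WT libraries instead of 60.9%. Lengths under peaks were compared with exact permutation tests over libraries and Benjamini-Hochberg adjustment over 4 assays. Interval, test and motif code was tested on simulated data. Python 3.11.15, NumPy 2.4.6 and matplotlib 3.10.9 were used. Alternatives covered stricter peaks, windows, overlap, flanks, scaling, single libraries and the replicate block.

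Members and lists were chosen with earlier results of these data known. Values are given for the C-type members, Pcdhb1, the first and last member of each subcluster, members annotated to a consensus region and members with a promoter peak in both libraries of 1 genotype and neither of the other. Other members, stretches and regions named with values were chosen after their values were seen. No pairing by replicate number was seen in fold enrichment at promoters with a peak in all 4 libraries of an assay. The correlation of same-numbered deviations between genotypes was -0.04 for ATAC, 0.03 for H3K4me1, 0.04 for H3K27ac and -0.02 for H3K27me3. These values cannot tell whether same-numbered libraries shared a litter or a run.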

Additional observations from a re-analysis of the deposited data

How the results depend on the processing

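Of 82 alternative values for 15 results, 63 kept the sign of a difference or stayed within 1.5 times of a count. A further 15 counts moved by more than that and 4 differences reversed. The 63 include the replicate block of each assay, which cannot change a difference. With a -log10 q of at least 5, members open in both libraries numbered 10 in WT and 7 in Tcf4 cKO, H3K4me1 was at 0 members in WT, H3K27me3 at 0 in Tcf4 cKO and Tcf4 at 0, and the H3K27ac length difference reversed to 0.171 kb. No H3K27me3 peak of the window passed that threshold, so no length was computed. Scaled to bases per Mb under peaks, the H3K4me1 difference reversed to -16.1. Leaving out single libraries, the length difference ran from -8.51 to -2.51 kb for ATAC, from -0.875 to 2.74 kb for H3K4me1, where it reversed to -0.875 without WT replicate 1 and -0.0570 without Tcf4 cKO replicate 2, from -3.38 to -1.07 kb for H3K27ac and from 0.917 to 3.12 kb for H3K27me3. With 1 library of a group, member promoters with a peak were 21 to 28 (ATAC, WT), 15 to 17 (ATAC, Tcf4 cKO), 1 to 2 and 1 to 3 (H3K4me1, WT and Tcf4 cKO), 4 to 4 and 3 to 4 (H3K27ac), 0 to 1 and 2 to 2 (H3K27me3) and 1 to 4 (Tcf4). Over all 15 regions of the window 2 instead of 0 were lower in Tcf4 cKO, and with a difference of 1 the count of higher member regions was 0. The replicate block changes only the test, to an exact sign-flip test whose smallest p is 0.5. The ATAC difference is then -5.51 kb by construction (exact sign-flip test, p = 0.5), so this setting says nothing on robustness. The causes were not tested. The counts rest on 2 libraries per genotype of unknown depth.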
